A study of Mus musculus with 72 samples.

Results

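Magnesium enters, leaves and moves within cells through a small number of membrane proteins, and 6 of their genes were followed here in mouse hearts 16 months after a single whole-body irradiation: Slc41a3, Slc41a1, Slc41a2, Trpm7, Trpm6 and Cnnm2. They were taken by gene symbol as 6 of the 19505 genes measured, each with 1 probe set, and were described across 15 exposure groups. Slc41a3 was chosen by its calls against sham in these data, so its differences between groups are given as a description with no test. The 5 other genes were taken for their function.

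Magnesium binds most of the ATP in a cell, and it modulates the calcium and potassium channels that shape the cardiac action potential. Proteins of the SLC41 family carry magnesium across membranes in exchange for sodium: SLC41A1 has been described as an efflux route of the plasma membrane and SLC41A3 as an efflux route of mitochondria, both from work in human cells. TRPM6 and TRPM7 are ion channels fused to a protein kinase, of which TRPM6 is known for magnesium uptake in the kidney tubule and gut and TRPM7 is found in nearly all tissues, including the developing mouse heart. CNNM2 is known from inherited magnesium wasting in the human kidney.

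The hearts came from female CB6F1/Hsd mice that were 100 to 120 days old at exposure and received a single full-body dose. Cs-137 gamma rays (Cs-IR) were given at 40, 80, 120 and 160 cGy, Si-14 ions (Si-IR, 260 MeV/n, about 70 keV/µm) at 4, 8, 16 and 32 cGy, and Ti-22 ions (Ti-IR, 1000 MeV/n, about 100 keV/µm) at 3, 6.5, 13 and 26 cGy. Each radiation type had its own sham group, which was kept in the same holders without radiation. All hearts came from an archive and from mice without tumors, and each array held the RNA of 1 heart, with 5 hearts per group except for 4 at Cs-IR 160 cGy, Ti-IR 6.5 cGy and Si sham. Whole-heart RNA cannot tell fewer cells of a type from less RNA per cell, and no source used here gives the hour at which hearts were collected.

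All values are log2 signals of Clariom S arrays after quantile normalization, and the levels printed have the difference between the 2 processing batches removed over all hearts. Differences were fitted within each radiation type with batch as a term, so they can depart a little from the difference of the printed means. On the first principal component (18.4% of the variance), 2 of the 43 arrays labelled batch 1 lay inside the range of batch 2: Cs-IR 160 cGy replicate 4 and Ti-IR 6.5 cGy replicate 3. Where a value below changes by much without these hearts, it is given both ways. All 6 ventricular cardiomyocyte markers were above the 90th percentile of the negative control probe sets on all arrays. Slc41a3, Slc41a1 and Trpm7 were also above that percentile on 72 of 72 arrays. Cnnm2 was above the median of the negative controls on 72 arrays and Slc41a2 on 71, but above the 90th percentile on 0. Trpm6 was above the median on 0 of 72 arrays, so its signal was not above background in these hearts. The genes lie on GRCm38.p6 at chr6:90604730-90646412 (Slc41a3), chr1:131828012-131848863 (Slc41a1), chr10:83230848-83338037 (Slc41a2), chr2:126791558-126876261 (Trpm7), chr19:18730177-18892521 (Trpm6) and chr19:46756834-46878580 (Cnnm2).

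A pair of promoters is shown because both hold the E-box that clock activators of the ARNTL family are known to bind. They are the RefSeq promoter windows (GRCm38.p6, 250 bases before to 50 bases after an annotated start) of Slc41a3, at chr6:90618996-90619295 on the plus strand, and Trpm7, at chr2:126876212-126876511 on the minus strand. Capitals mark the E-box CACGTG, which reads the same on both strands.
Slc41a3: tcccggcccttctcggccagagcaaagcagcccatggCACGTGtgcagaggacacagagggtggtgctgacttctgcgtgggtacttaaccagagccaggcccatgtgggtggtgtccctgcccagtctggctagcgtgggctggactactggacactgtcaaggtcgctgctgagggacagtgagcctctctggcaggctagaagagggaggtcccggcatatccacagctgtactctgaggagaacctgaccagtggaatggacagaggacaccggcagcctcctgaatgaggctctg
Trpm7: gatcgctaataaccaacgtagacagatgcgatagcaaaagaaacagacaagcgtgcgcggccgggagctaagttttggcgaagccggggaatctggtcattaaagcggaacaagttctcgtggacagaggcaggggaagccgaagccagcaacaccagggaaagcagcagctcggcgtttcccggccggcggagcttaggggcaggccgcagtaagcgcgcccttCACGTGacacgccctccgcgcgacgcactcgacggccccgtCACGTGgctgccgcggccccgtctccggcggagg
The Slc41a3 window held 1 E-box, 213 bases before the start, and the Trpm7 window held 2, of which the first lay 25 bases before the start. The window lies inside the annotated span of Slc41a3, and other starts of the gene were not searched. Among all 32851 windows of this length, 7.15% held an E-box. Those of Slc41a1, Slc41a2, Trpm6 and Cnnm2 held none. The windows of Trpm6 and Cnnm2 also lie inside the annotated spans of these genes, and their other starts were not searched. The related sequence CACGTT, searched on both strands, stood in 4.68% of the windows and in that of Slc41a1. The D-box TTATGTAA, also searched on both strands, stood in 0.938% of all windows and in none of the 6 members. A match in letters does not show that a factor binds there.

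On the arrays Slc41a3 was lower than sham in most Cs-IR groups and higher in most Si-IR groups. In Cs-IR 120 cGy hearts it measured 8.81, 8.40, 8.42, 8.33 and 8.35, against 9.32, 9.40, 9.37, 9.13 and 9.48 in Cs sham hearts. All 5 exposed hearts lay below the lowest sham heart, and the difference was -0.88 ± 0.13 (log2, SE), or 0.545-fold. In Cs-IR 160 cGy hearts it measured 8.60, 8.98, 8.25 and 9.08, a difference of -0.62 ± 0.14 from the same sham group, with 4 of 4 hearts below the sham range. Without replicate 4 the difference at 160 cGy was -0.74 ± 0.14. At 40 cGy the hearts measured 8.80, 8.77, 8.94, 8.97 and 8.74, again all below the sham range, with a difference of -0.50 ± 0.13. The 80 cGy hearts stood closest to sham, at 8.92, 9.05, 9.16, 9.32 and 9.14, and 2 of 5 lay below the sham range (-0.22 ± 0.13). The order of the 4 doses was therefore not the order of the differences.

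After Si-IR the direction was the opposite at 3 of 4 doses. Slc41a3 measured 9.44, 9.48, 9.46, 9.37 and 9.48 in Si-IR 4 cGy hearts, against 8.58, 8.91, 8.77 and 9.04 in Si sham hearts, a difference of 0.67 ± 0.15 or 1.59-fold. In Si-IR 8 cGy hearts it measured 9.36, 9.55, 9.54, 9.22 and 9.35 (0.63 ± 0.15), and in Si-IR 32 cGy hearts 9.43, 9.61, 9.21, 9.27 and 9.48 (0.62 ± 0.15). All 15 hearts of these groups were above the highest Si sham heart. The 16 cGy hearts overlapped with sham, at 8.32, 8.86, 8.86, 9.27 and 8.74, with a difference of 0.04 ± 0.15.

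Ti-IR hearts were lower than Ti sham hearts from 6.5 cGy on. Slc41a3 measured 8.96, 8.72, 8.51 and 8.68 in Ti-IR 6.5 cGy hearts, against 9.67, 9.20, 9.69, 9.37 and 9.22 in Ti sham hearts, a difference of -0.72 ± 0.15 or 0.605-fold. No exposed heart reached the sham range, and without replicate 3 the difference was -0.65 ± 0.16. The 13 cGy hearts (9.16, 8.86, 8.93, 8.82 and 8.90) were all below the sham range too, at -0.50 ± 0.14. At 26 cGy the hearts split, with 9.40 and 9.32 inside the sham range and 8.78, 8.74 and 8.75 below it, and the difference was -0.43 ± 0.14. At 3 cGy 4 of 5 hearts lay in the sham range, and the difference was -0.05 ± 0.14. The study also measured Slc41a3 by quantitative PCR, and reported it as higher with dose after Cs-IR and lower after Si-IR. Those directions are opposite to the array differences given here for most Cs-IR and Si-IR groups. The PCR values were not analysed here, and the cause of the disagreement was not tested.

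**Figure D1:**
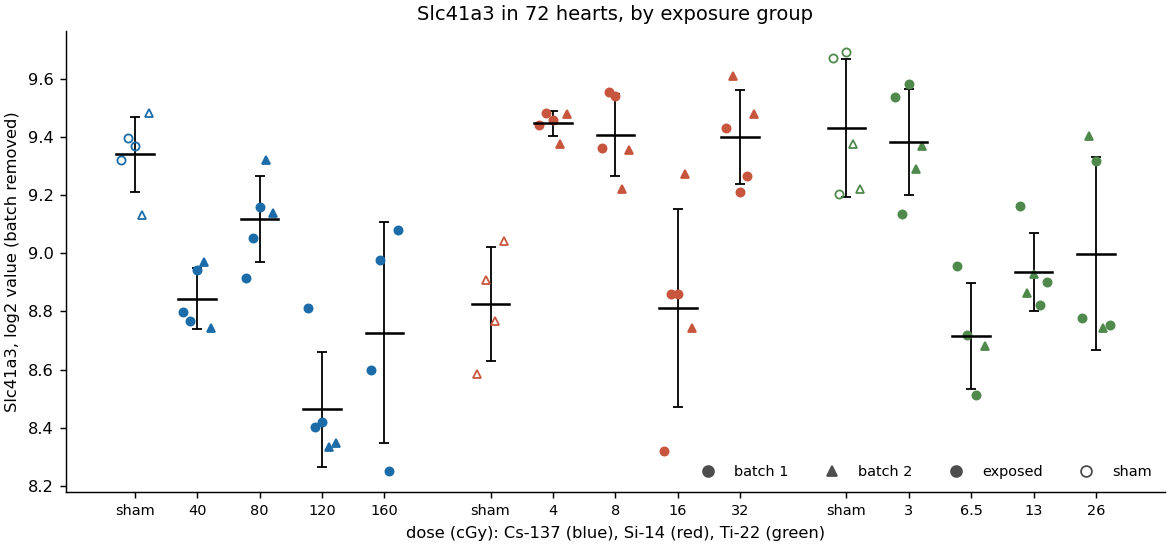
Slc41a3 in each of the 72 hearts, as log2 value with the batch difference removed (vertical axis), by dose in cGy (horizontal axis) for Cs-137 in blue, Si-14 in red and Ti-22 in green; filled symbols are exposed and open symbols sham hearts, circles are batch 1 and triangles batch 2, and bars are the mean and SD. The Cs-IR 120 cGy mean of 8.46 is the lowest and the Si-IR 4 cGy mean of 9.45 the highest, and the Si sham mean of 8.83 lies below both other sham means.

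A gene was called at an adjusted p under 0.25, over all genes of that comparison, which is the threshold of the study. By that rule Slc41a3 passed at Cs-IR 120 and 160 cGy, Si-IR 4 and 8 cGy and Ti-IR 6.5 cGy, which are the values it was chosen by. It also passed for Cs sham minus Si sham and Si sham minus Ti sham. The share of all genes called after Cs-IR was 0.22%, 0.482%, 0.682% and 6.91% from the lowest to the highest dose. After Si-IR it was 0.159%, 0.128%, 0.0205% and 0.0513% from the lowest to the highest dose. After Ti-IR it was 0.0103%, 5.6%, 0.426% and 0% in the same order. The groups just outside the rule differed from sham about as much as some inside it, as Si-IR 32 cGy at 0.62 and Ti-IR 13 cGy at -0.50 show. Nothing is read from the shares of genes called for Slc41a3, since these contrasts chose it. The doses of a radiation type share their sham hearts, so these differences are not independent of each other.

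The sham groups of Slc41a3 differed about as much as exposed and sham groups did. Its mean was 8.83 ± 0.20 in Si sham hearts (SD, n = 4), against 9.43 ± 0.24 in Ti sham hearts (n = 5), a difference of -0.61 ± 0.15 with 4 of 4 Si sham hearts below the Ti sham range. Cs sham hearts averaged 9.34 ± 0.13 and were 0.51 ± 0.15 above Si sham hearts and -0.09 ± 0.13 from Ti sham hearts. The means at Si-IR 4, 8 and 32 cGy, 9.45, 9.41 and 9.40, differed from the Cs sham mean by less than its SD. All 4 Si sham arrays were in batch 2, so the level of that group depends on the batch term, and with no batch term the Si-IR differences were 0.38, 0.34, -0.25 and 0.34 at 4, 8, 16 and 32 cGy. Within batch 2 alone they were 0.60, 0.46, 0.18 and 0.72.

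Within batches the Cs-IR and Ti-IR differences kept their direction where Slc41a3 was called. At Cs-IR 120 cGy the difference was -0.82 in batch 1 and -0.97 in batch 2, and at Ti-IR 6.5 cGy it was -0.79 in batch 1 and -0.62 in batch 2, where the exposed group has 1 array. Cs-IR 160 cGy has arrays in batch 1 alone, where the difference was -0.63. The batches are by label here, so batch 1 includes Cs-IR 160 cGy replicate 4 and Ti-IR 6.5 cGy replicate 3.

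Ordered by mean, the 15 groups of Slc41a3 ran over 0.98 log2 units. At the top stood Si-IR 4 cGy (9.45), Ti sham (9.43), Si-IR 8 cGy (9.41), Si-IR 32 cGy (9.40), Ti-IR 3 cGy (9.38) and Cs sham (9.34), and the hearts of these 6 groups were all above 9. Below them came Cs-IR 80 cGy (9.12), Ti-IR 26 cGy (8.999), Ti-IR 13 cGy (8.94), Cs-IR 40 cGy (8.84), Si sham (8.83) and Si-IR 16 cGy (8.81), then Cs-IR 160 cGy (8.73), Ti-IR 6.5 cGy (8.72) and Cs-IR 120 cGy (8.46). Of the 14 pairs of neighbours in this order, 12 differed by less than the larger of their SDs. The exceptions were Cs sham above Cs-IR 80 cGy, by 0.22, and Ti-IR 6.5 cGy above Cs-IR 120 cGy, by 0.25. The groups held 73.7% of the variance of Slc41a3 between hearts, against a median of 22.6% over all genes. Slc41a3 was chosen by differences between these groups, so nothing is read from this share.

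Averaged over the 4 doses of a type, Slc41a3 differed from sham by -0.55 ± 0.11 after Cs-IR, 0.44 ± 0.12 after Si-IR and -0.42 ± 0.11 after Ti-IR. The Cs-IR effect was -0.99 ± 0.16 apart from the Si-IR effect and -0.13 ± 0.15 from the Ti-IR effect, at doses that differ between types. Its slope on dose was -0.0043 ± 0.0010 log2 units per cGy after Cs-IR, 0.0048 ± 0.0062 after Si-IR and -0.015 ± 0.0066 after Ti-IR.

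Slc41a1, the plasma membrane carrier of the same family, was the other member with calls, and it was higher than sham at the 2 doses called, Cs-IR 160 cGy and Ti-IR 6.5 cGy. Over all 12 doses 9 differences were above and 3 below 0, those below 0 being at Si-IR 4, 8 and 16 cGy. In Cs-IR 160 cGy hearts it measured 9.10, 9.27, 9.08 and 9.69, against 8.74, 8.75, 8.87, 8.87 and 8.99 in Cs sham hearts. All 4 exposed hearts were above the sham range, and the difference was 0.52 ± 0.10, or 1.44-fold (limma, adjusted p = 0.0319). Replicate 4 was the highest of the group, and without it the difference was 0.39 ± 0.09 with an adjusted p of 0.0522 from limma, still under the threshold. Within batch 1 by label, which includes replicate 4, the difference was 0.50 ± 0.13, and the adjusted limma p of 0.323 was above the threshold.

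In Ti-IR 6.5 cGy hearts Slc41a1 measured 8.88, 9.35, 9.61 and 8.97, against 8.58, 8.76, 8.79, 8.78 and 8.95 in Ti sham hearts. The difference was 0.43 ± 0.13 (1.35-fold, limma adjusted p = 0.175), and 3 of 4 exposed hearts were above the sham range. Within batch 1 by label, which includes replicate 3, the difference was 0.57 ± 0.18 (limma adjusted p = 0.132). The call was lost when replicate 3 was left out (0.30 ± 0.12, limma adjusted p = 0.405). It was also lost without replicate 2 of the exposed group (0.38) or without replicate 1 (0.37) or 3 (0.43) of the sham group. In the same pair of comparisons Slc41a3 was lower and Slc41a1 higher than sham, but over the 72 hearts their levels had r = -0.31, and r = 0.02 after the group and batch means were taken out.

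After batch removal by label, the 2 hearts whose arrays lay with the other batch had the highest Slc41a1 levels of all 72. Before it they measured 9.43 (Cs-IR 160 cGy replicate 4) and 9.36 (Ti-IR 6.5 cGy replicate 3). That was below the 9.52 of Cs-IR 40 cGy replicate 5, an array of batch 2. The marker levels given here also have batch removed by label. The level of the 6 ventricular markers, as their mean log2 value, was 11.95 in Cs-IR 160 cGy replicate 4, against 12.12 to 12.17 in Cs sham hearts, and that was the lowest of all hearts. In the same heart the endothelial level of 9.23 was the highest of all hearts (8.88 to 9.07 in Cs sham hearts), and the smooth muscle level was 8.91 (7.67 to 7.99 in Cs sham hearts). Ti-IR 6.5 cGy replicate 3 had a ventricular level of 12.05 (12.13 to 12.16 in Ti sham hearts), an endothelial level of 9.15 (8.87 to 9.02) and a fibroblast level of 8.45 (8.95 to 9.27), the lowest fibroblast level of all hearts. Of the 3 fibroblast markers measured, limma called Col1a1 and Col3a1 lower at Ti-IR 6.5 cGy, while 1 was higher and not called. All 3 smooth muscle markers were higher there, and Myh11 was called. The ventricular marker Myl3 was called lower at Cs-IR 160 cGy. Of all genes, 5.6% were called at Ti-IR 6.5 cGy and 6.91% at Cs-IR 160 cGy. Across the 72 hearts, after group and batch means were removed, Slc41a1 and the ventricular marker level had r = -0.69, and r = -0.67 without these 2 hearts. The hearts share their arrays and normalization in this comparison, and the part of the markers in the Slc41a1 result was not tested.

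**Figure D2:**
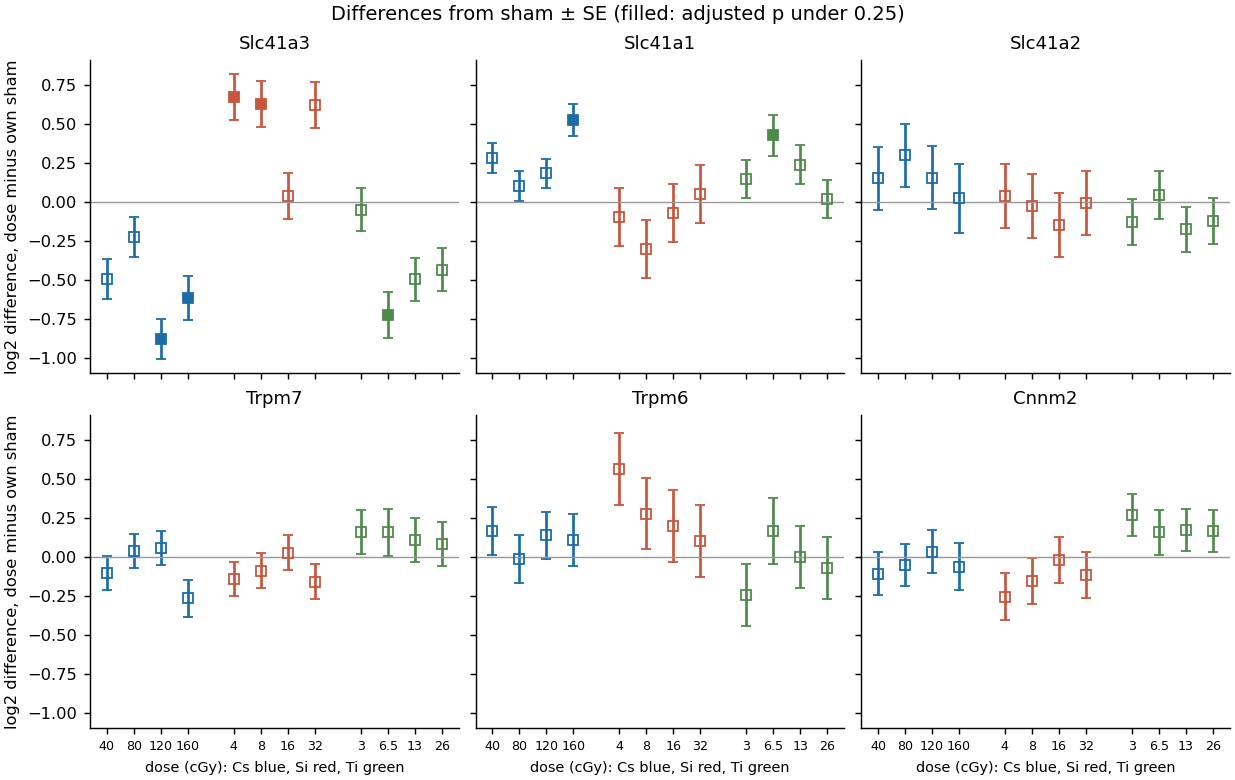
Log2 difference between each exposed group and its own sham group, with its SE (vertical axis), for each dose in cGy (horizontal axis; Cs-137 blue, Si-14 red, Ti-22 green) and each of the 6 genes; filled squares are called at an adjusted p under 0.25, and for Slc41a3 they are the calls it was chosen by. Slc41a3 runs between -0.88 and 0.67, while of the 60 values of the other genes 2 are filled, both for Slc41a1, and Trpm6 was at background on all arrays.

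At the 10 other doses Slc41a1 was not called. Its differences from sham there ran between -0.30 ± 0.19 at Si-IR 8 cGy and 0.28 ± 0.09 at Cs-IR 40 cGy, where 4 of 5 exposed hearts were above the sham range (limma adjusted p = 0.778). Without Cs-IR 160 cGy replicate 4, which enters the same fit, this difference of 0.28 had a smaller SE of 0.07 and was called (limma adjusted p = 0.243). The lowest level of all hearts, 7.98, was that of Si-IR 8 cGy replicate 5, while the others of that group lay between 8.75 and 8.97. Its slope on Cs-IR dose, 0.0022 ± 0.0007 log2 units per cGy, had an adjusted p of 0.251 from limma, just above the threshold. By group mean the gene ran between 8.69 at Si-IR 8 cGy and 9.29 at Cs-IR 160 cGy, and all 14 pairs of neighbours in this order differed by less than the larger SD.

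Slc41a2, which encodes a further magnesium carrier of the same family, was called at 0 of 12 doses. Its differences from sham ran from -0.17 ± 0.14 at Ti-IR 13 cGy to 0.30 ± 0.20 at Cs-IR 80 cGy, with 6 above and 6 below 0 and a lowest adjusted p of 0.782 (limma). In Cs-IR 80 cGy hearts it measured 5.04, 4.43, 4.76, 4.96 and 5.59, against a range of 4.28 to 4.86 in Cs sham hearts, so that 3 of 5 hearts were above it. Group means lay between 4.56 and 4.95, with hearts spread by an SD of up to 0.42.

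Trpm7, the widely expressed channel-kinase, differed from sham by -0.27 ± 0.12 at Cs-IR 160 cGy and by 0.16 ± 0.14 at Ti-IR 3 cGy, the lowest and highest of its 12 differences, and was called at none of them (lowest adjusted p = 0.33, limma, at Cs-IR 160 cGy). In Cs-IR 160 cGy hearts it measured 8.56, 8.53, 8.69 and 8.13, against 8.60, 8.66, 8.83, 8.77 and 8.73 in Cs sham hearts. In Ti-IR 6.5 cGy hearts it measured 8.92, 8.86, 7.99 and 8.85, against 8.47, 8.53, 8.23, 8.66 and 8.69 in Ti sham hearts. The lowest heart in each exposed group was again that whose array lay with the other batch. Without it the difference was -0.15 ± 0.11 at Cs-IR 160 cGy (limma adjusted p = 0.627) and 0.37 ± 0.12 at Ti-IR 6.5 cGy (limma adjusted p = 0.302), against 0.16 ± 0.15 with it at 6.5 cGy. The Cs-IR 160 cGy difference was called without Cs-IR 120 cGy replicate 1 (-0.28) or Cs-IR 160 cGy replicate 3 (-0.34), and in other settings Trpm7 was called at either dose. Before batch removal Trpm7 was the member with the largest batch difference, -0.79 log2 units in batch 2 minus batch 1, and Slc41a1 followed at 0.51 and Slc41a3 at 0.40. Without that removal Trpm7 measured 8.52 in Cs-IR 160 cGy replicate 4 and 8.38 in Ti-IR 6.5 cGy replicate 3. In Ti-IR 6.5 cGy replicate 4, an array of batch 2, it then measured 8.46.

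Trpm6, the kidney and gut channel-kinase, stayed at background level. Its group means ran from 2.42 in Si sham hearts to 3.10 in Ti-IR 6.5 cGy hearts, and it was called at 0 of 12 doses. The lowest adjusted p was 0.694 (limma), at Si-IR 4 cGy. Its values were 3.34, 2.90, 3.37, 2.67 and 3.01 in Si-IR 4 cGy hearts, against 2.09, 2.31, 2.78 and 2.48 in Si sham hearts. Since neither group was above the median of the negative controls, no size of difference is given.

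Cnnm2, known for magnesium transport at the basolateral side of kidney tubule cells, was called at 0 of 12 doses. Its differences were negative at all 4 Si-IR doses, between -0.26 ± 0.15 and -0.02 ± 0.15, and positive at all 4 Ti-IR doses, between 0.16 ± 0.14 and 0.27 ± 0.13. The doses of a type share their sham hearts, and the lowest adjusted p was 0.565 (limma). In Ti-IR 3 cGy hearts it measured 5.76, 5.84, 5.85, 5.98 and 5.69, against 5.65, 5.78, 4.99, 5.47 and 5.88 in Ti sham hearts. Of the 5 exposed hearts 1 lay above the sham range, and the lowest sham heart, at 4.99, was the lowest of all 72. Si sham hearts measured 5.95, 5.80, 6.13 and 5.74, of which 2 of 4 lay above the Ti sham range.

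**Figure D3:**
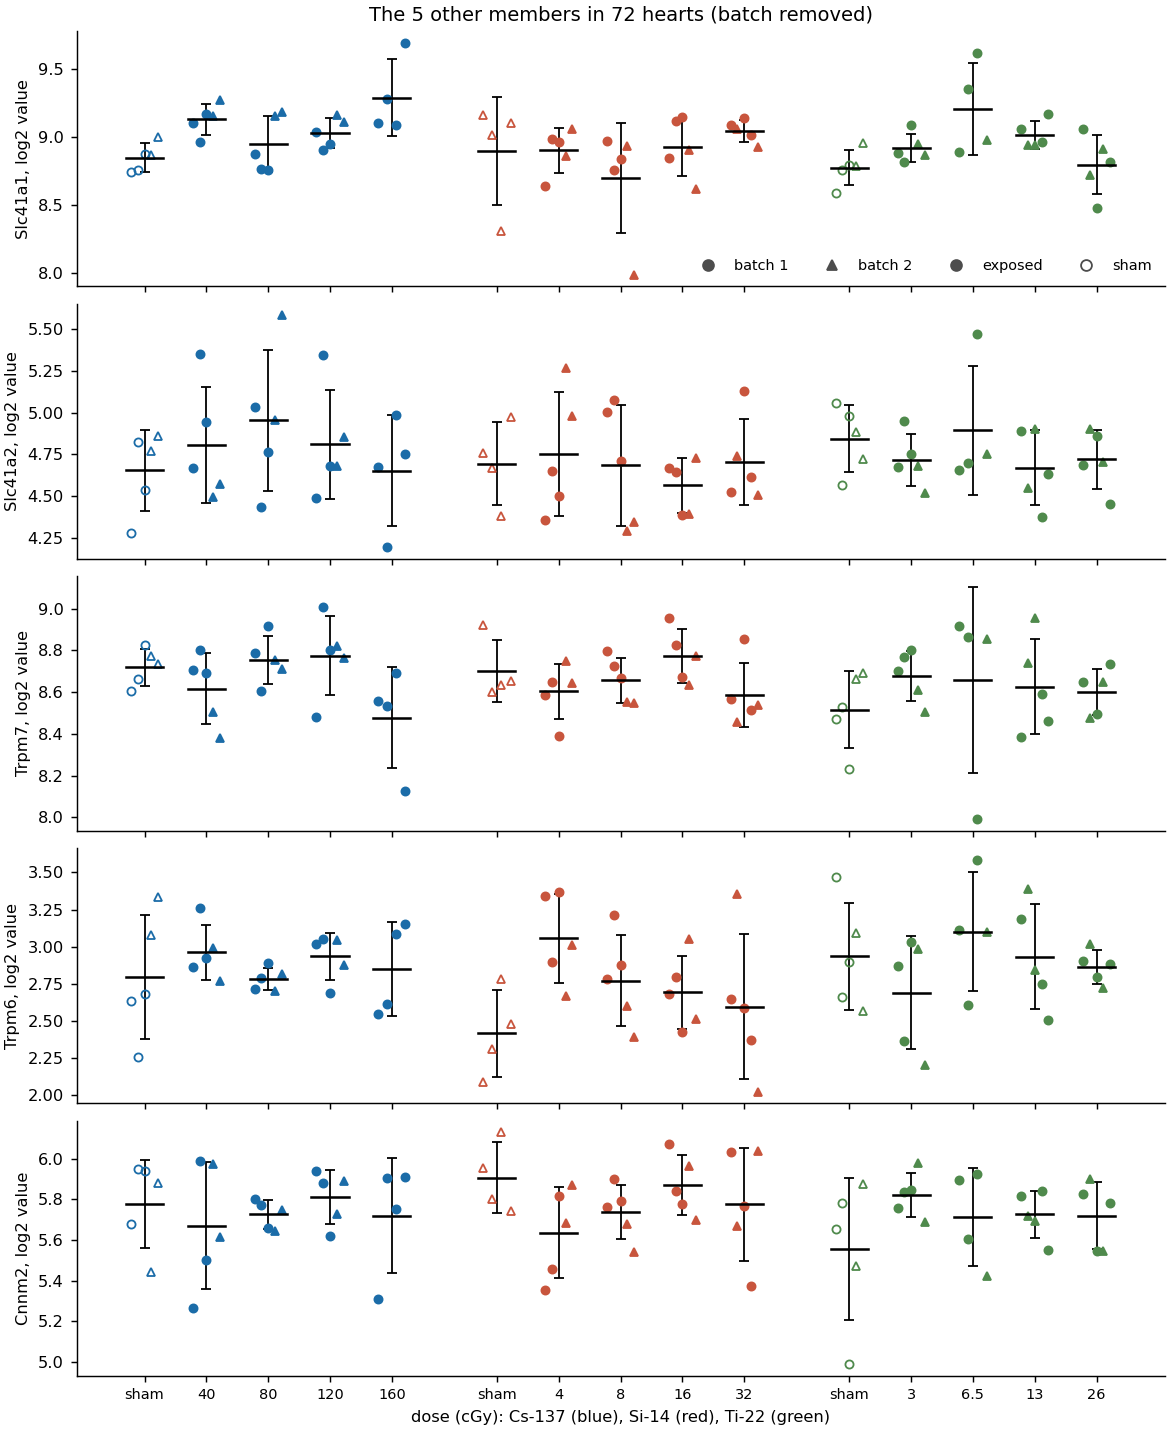
Log2 value with the batch difference removed (vertical axes) of Slc41a1, Slc41a2, Trpm7, Trpm6 and Cnnm2 in each of the 72 hearts, by dose in cGy (horizontal axis; Cs-137 blue, Si-14 red, Ti-22 green); filled symbols are exposed and open symbols sham hearts, circles are batch 1 and triangles batch 2, and bars are the mean and SD. Slc41a1 reaches 9.69 in 1 Cs-IR 160 cGy heart and 9.61 in 1 Ti-IR 6.5 cGy heart, and that Ti-IR heart has the lowest Trpm7 value at 7.99.

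Counted together, the 5 other members gave 2 calls in 60 tests against sham, with 5 at an unadjusted p under 0.05. Both calls fell in the comparisons with the largest share of all genes called, 6.91% and 5.6%. Between the sham groups 0 of 15 tests were called by limma, with 2 at an unadjusted p under 0.05, where the share of all genes called was 5.67% for Cs sham minus Si sham, 6.35% for Si sham minus Ti sham and 0.113% for Cs sham minus Ti sham. The nearest among genes above the negative control median was Cnnm2, at 0.35 ± 0.15 for Si sham minus Ti sham (limma adjusted p = 0.261). Trpm6, at background on all arrays, had an adjusted limma p of 0.254 there. Both passed the threshold when the 2 hearts whose arrays lay with the other batch were left out.

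The effect of exposure, as the mean of the 4 doses minus sham, was compared between radiation types. For the 5 other members 0 of 15 such differences were called by limma, with 1 at an unadjusted p under 0.05, while 2.2% of all genes were called for Cs minus Si, 0.779% for Si minus Ti and 0.0615% for Cs minus Ti. The nearest was Cnnm2, with -0.34 ± 0.16 for Si minus Ti (limma adjusted p = 0.58). Straight lines on dose gave 0 calls of 15 with limma and 1 at an unadjusted p under 0.05, where 1.55% of all genes were called for Cs-IR, 0% for Si-IR and 0% for Ti-IR.

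The wider set of magnesium genes was called at the same 2 doses as Slc41a1. Of 33 listed genes 30 were measured, among them partners of the CNNM proteins, mitochondrial carriers, the Magt1, Mmgt and Nipa families and genes of kidney and gut handling. At Cs-IR 160 cGy 3 were called higher and 1 lower, with a median difference of -0.04 over the list and 0.00 over all genes, and 13.3% of the list was called, against 6.91% of all genes. At Ti-IR 6.5 cGy 4 were called higher and 1 lower, or 16.7% against 5.6% of all genes, with medians of 0.05 for the list and -0.01 for all genes. At the 10 other doses 0 of 30 were called by limma.

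Nipal3, of a family of magnesium transporters, was 7.37 ± 0.16 in Cs-IR 160 cGy hearts (SD, n = 4) and 6.88 ± 0.34 in Cs sham hearts (n = 5), a difference of 0.57 ± 0.14 (limma adjusted p = 0.0693). Slc25a23, a mitochondrial carrier of ATP with magnesium, was 0.36 ± 0.12 higher (limma adjusted p = 0.163), and Mrs2, the magnesium channel of the inner mitochondrial membrane, was lower by -0.24 ± 0.08 (limma adjusted p = 0.193). Egf, whose product stimulates TRPM6 in the kidney, was 5.26 ± 0.27 in Ti-IR 6.5 cGy hearts (SD, n = 4) and 4.54 ± 0.33 in Ti sham hearts (n = 5), a difference of 0.73 ± 0.16 (limma adjusted p = 0.0758). Cnnm4, a relative of Cnnm2, was 0.38 ± 0.12 higher (limma adjusted p = 0.184) and Ptp4a2, a phosphatase that binds CNNM proteins, 0.26 ± 0.09 higher (limma adjusted p = 0.231). Egf also averaged 5.20 ± 0.20 in Si sham hearts (n = 4), 0.66 ± 0.21 above Ti sham hearts (limma adjusted p = 0.154). Between sham groups 6 of the 30 genes were called for Cs sham minus Si sham (20% against 5.67% of all genes), 3 for Si sham minus Ti sham (10% against 6.35%) and 0 for Cs sham minus Ti sham (0% against 0.113%). Egf and Cnnm4 were above the 90th percentile of the negative controls on 0 of 72 arrays, Nipal3 on 3 and Mrs2 on 17. All of these were above the median on 72. Slc25a23 was above the 90th percentile on 70 arrays and Ptp4a2 on 72.

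Without the 2 hearts whose arrays lay with the other batch, the calls at the 12 doses over the list numbered 3 instead of 9. The share of all genes called without them is not given, so the fall is not read as particular to the list. Nipal3 and Egf remained (limma adjusted p = 0.141 and 0.229), and Nipa1, of the same family as Nipal3, was added after Cs-IR 160 cGy at -0.44 ± 0.13 (limma adjusted p = 0.156). Slc25a23 (0.26), Mrs2 (-0.22), Cnnm4 (0.32) and Ptp4a2 (0.28) were no longer called, with adjusted limma p from 0.29 for Mrs2 to 0.394 for Cnnm4. With those arrays counted to batch 2 the 3 calls were others in part: Egf remained, as did Nipal1, Nipal3 was lost (0.33, limma adjusted p = 0.434), and Pcbd1 was added at Cs-IR 120 cGy.

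Across the 72 hearts, the gene whose level ran most like that of Slc41a3 was Arntl, which encodes the clock activator BMAL1 (r = 0.863 and Spearman's rho = 0.867, with batch means removed). Its r was 0.834 in batch 1 and 0.913 in batch 2, and 0.611 after the group means were also removed. These are descriptions over hearts that share their groups, and no p is given. The next 5 were Adam19, a membrane metalloproteinase (r = 0.777), Spon2, a secreted matrix protein (r = 0.771), Npas2 and Clock, the partners of BMAL1 (r = 0.753 and 0.74), and Rcan1, a regulator of calcineurin (r = 0.735). The lowest r were those of Per3 (-0.839), Wee1 (-0.783), Per2 (-0.762) and Ciart (-0.76). After group means were also removed, the r were 0.373 for Adam19, 0.457 for Spon2, 0.385 for Npas2, 0.307 for Clock and 0.362 for Rcan1. They were then -0.579 for Per3, -0.427 for Wee1, -0.331 for Per2 and -0.44 for Ciart. Arntl, Adam19, Spon2, Rcan1, Per3, Wee1 and Per2 are, like Slc41a3, among the genes the study reported as common to all radiation types. Per2, Per3 and Ciart are clock repressors, and Wee1 is a cell cycle kinase known as a clock output in mouse liver. Without batch removal Clock stood at rank 2968 (r = 0.253), while Arntl and Per3 kept the ends of the order.

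Arntl and Dbp, a clock output that binds the D-box, show the pattern by group. In Cs-IR 120 cGy hearts Arntl averaged 5.37 ± 0.35 and Dbp 10.86 ± 0.08 (SD, n = 5), against 7.48 ± 0.28 and 9.37 ± 0.44 in Cs sham hearts (n = 5). In Si-IR 4 cGy hearts Arntl averaged 7.60 ± 0.38 and Dbp 9.12 ± 0.97 (n = 5), against 5.30 ± 0.52 and 10.97 ± 0.22 in Si sham hearts (n = 4). In Ti-IR 6.5 cGy hearts they averaged 5.58 ± 0.42 and 10.87 ± 0.09 (n = 4), against 7.05 ± 0.39 and 9.68 ± 0.65 in Ti sham hearts (n = 5). So each group with low Slc41a3 in these pairs had low Arntl and high Dbp, sham or exposed. Dbp had r = -0.735 and rho = -0.822 with Slc41a3, and leaving out the 2 hearts farthest from the median gave r = -0.758 for Dbp and 0.867 for Arntl. At Ti-IR 26 cGy, where Slc41a3 split, the SD of Arntl was 1.12 and that of Dbp 1.49, and both were the widest of the 15 groups.

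All 3 listed activators had positive r with Slc41a3 and all 11 repressors and outputs negative r, between -0.282 for Nr1d1 and -0.839 for Per3. After group means were also removed, these negative r lay between -0.0689 for Nr1d1 and -0.579 for Per3. Slc41a1 had the opposite signs for all 14 over both batches, with r = -0.436 for Arntl, 0.536 for Dbp and 0.589 for Cry2, a clock repressor. In batch 2 alone the signs for Npas2 (0.0297), Clock (0.0848), Tef (-0.194) and Hlf (-0.0348) were the other way, and the r for Arntl was -0.613 in batch 1 and -0.195 in batch 2. For Slc41a2, Trpm6, Trpm7 and Cnnm2 the r with these 14 genes lay between -0.287 and 0.292. Trpm7, whose promoter window holds 2 E-boxes, had r = -0.0829 with Arntl, but 0.0821 in batch 1 and -0.474 in batch 2. Clock genes were chosen for this listing with their calls in these data known. Their part in the Slc41a3 pattern was not tested, and the hour of collection cannot be told apart from the groups with these labels.

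**Figure D4:**
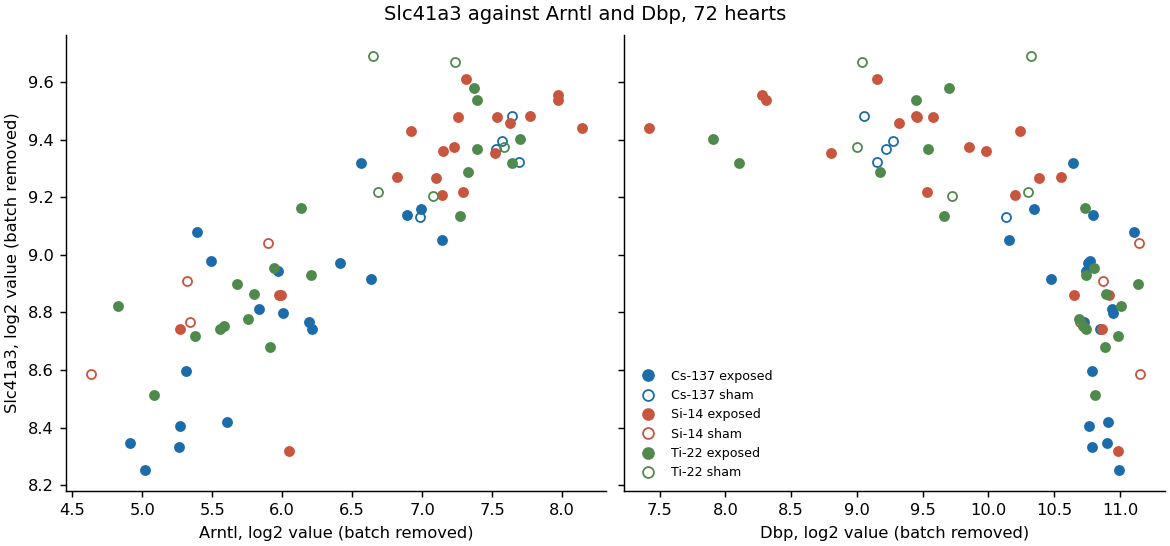
Slc41a3 (vertical axis) against Arntl and Dbp (horizontal axes) in the 72 hearts, all as log2 value with the batch difference removed; colours are radiation types, filled symbols exposed and open symbols sham hearts. Slc41a3 is higher in hearts with more Arntl (r = 0.863) and lower in hearts with more Dbp (r = -0.735), and the Si sham hearts lie at the low end of Arntl. The r are those of values with plain batch means removed, while the plotted values had batch removed with the groups kept in the fit.

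The other members had other neighbours. Slc41a1 ran with Ets2, a transcription factor (r = 0.788), Ggcx, the vitamin K-dependent carboxylase (r = 0.782), and Fcgrt, the neonatal Fc receptor (r = 0.779). Spearman's rho for these genes was lower, at 0.594, 0.638 and 0.571. Trpm7 ran with Hnrnpdl, Luc7l2 and Clk1, which encode RNA-binding proteins and a kinase of splicing factors (r = 0.803, 0.748 and 0.71). For Clk1 the r was 0.861 in batch 1 and 0.149 in batch 2. Slc41a2 had r = 0.506 with Tbxas1, thromboxane synthase, 0.493 with Ttc12 and 0.485 with Pdzd2. Trpm6 had r = 0.474 with Atp9a, 0.473 with Ccdc97 and 0.451 with Clec11a, but its signal was at background on all arrays. For Atp9a the r was 0.635 in batch 1 and 0.211 in batch 2. Cnnm2 had r = 0.478 with Lrrc8b, 0.476 with Nrf1 and 0.467 with Fgd6. Between the 6 members, the r over 72 hearts ran from -0.308 (Slc41a1 and Slc41a3) to 0.271 (Slc41a2 and Trpm6).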

How the data were processed

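RNA of 72 hearts was hybridised to Clariom S arrays, 43 in batch 1 and 29 in batch 2. The authors deposited 1 table of log2 signals per probe set, made with RMA per the labels. Its array medians ran from 4.17 to 6.35, so the 22206 probe sets with a TC identifier were quantile normalized again here. Gene names came from GEO's platform annotation: 19572 probe sets had 1 symbol, 0 several and 2634 none. For 55 genes with more than 1 probe set the brightest on average was used, for 19505 genes in all.

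Differences were fitted with limma 3.58.1 in R 4.3.3 within each radiation type (group and batch), and over all 72 arrays for sham groups and radiation types. P-values were adjusted over all genes by the Benjamini-Hochberg method, and a call needed an adjusted p under 0.25. Printed levels had the batch difference removed with the groups kept in the fit. Correlations over the 72 hearts used values with plain batch means removed, unless stated otherwise. Each heart was 1 sample, and the number of arrays limits the precision. No 2 arrays were identical. The scripts were tested on simulated data.

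The members, lists, tests and alternatives were chosen with earlier results of these data known. Named by rule were, for likeness, the 6 highest and 4 lowest r for Slc41a3 and the 3 highest for the others, and, for the magnesium list, at most 3 called genes per dose by p. Mmgt2 and Nipal1, also called, were not described further. Nipa1, Pcbd1, Egf in sham hearts and the called marker genes were named after their values were seen. Of the listed magnesium genes 3 were not analysed here.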

Additional observations from a re-analysis of the deposited data

Results flagged for a closer look

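In 90 sets of hearts (6 genes in 15 groups), 7 had 1 heart far from the rest by Dixon's test at the 95% level, which chance gives in about 1 in 20 sets. Slc41a1 was 8.30 in Si sham replicate 3, where the others were 9.01 to 9.16, and 7.98 in Si-IR 8 cGy replicate 5, where they were 8.75 to 8.97. Slc41a3 was 8.81 in Cs-IR 120 cGy replicate 1, above the 8.33 to 8.42 of the others. Trpm7 was high in Si sham replicate 1 (8.92, others 8.60 to 8.65) and Si-IR 32 cGy replicate 3 (8.86, others 8.46 to 8.57). Ti-IR 6.5 cGy replicate 3, whose array lay with the other batch, stood apart for Trpm7 (7.99, others 8.85 to 8.92) and for Slc41a2 (5.47, others 4.66 to 4.75). Before batch removal by label its Trpm7 value was 8.38, against 8.46 in replicate 4, an array of batch 2.

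In 6 of 72 pairs of doses of the same rank in different radiation types, every heart of one exposed group was above its sham mean and every heart of the other below its own. Of these 5 were for Slc41a3, which was chosen by its differences from sham, so nothing is read from that count. The doses of a pair differ in cGy, and the difference within each pair was not tested. The Slc41a3 effect at Cs-IR 40 cGy minus that at Si-IR 4 cGy was -1.17, at Cs-IR 80 cGy minus Si-IR 8 cGy -0.85, and at Cs-IR 160 cGy minus Si-IR 32 cGy -1.24. It was 1.36 at Si-IR 8 cGy minus Ti-IR 6.5 cGy and 1.06 at Si-IR 32 cGy minus Ti-IR 26 cGy. For Cnnm2 the effect at Si-IR 4 cGy minus that at Ti-IR 3 cGy was -0.52.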

How the results depend on the processing

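The 2 calls against sham among the 5 other members became 1 at an adjusted p under 0.05, 1 with array medians aligned in place of quantiles, 1 within batch 1, 0 within batch 2, 0 with no batch term, 0 with only the 2 groups compared in a fit, and 6 on the values as deposited. Leaving out 1 heart at a time gave 1 to 3. The 0 calls between sham groups became 5 as deposited, 1 with trended and robust moderation, 1 with dim genes filtered out, and 2 with the 2 arrays of batch 1 that lay with batch 2 (the 2 displaced arrays) either left out or counted to batch 2 (0 to 2 with 1 heart left out). The 0 dose trends became 4 as deposited and 1 each with trended and robust moderation, the dim filter and a spline (0 to 1 with 1 heart left out). The 0 differences between radiation types stayed at 0 in 10 alternatives and in 72 fits without 1 heart. Trpm7 was called at Cs-IR 160 cGy with trended and robust moderation or the dim filter, and at Ti-IR 6.5 cGy as deposited or with the 2 displaced arrays counted to batch 2. The Slc41a1 call at Cs-IR 160 cGy was lost with no batch term (0.24, limma adjusted p = 0.969), as deposited (0.10, limma adjusted p = 0.792), with medians aligned, within batch 1 and with only the 2 groups in the fit. That at Ti-IR 6.5 cGy was lost with no batch term (0.36, limma adjusted p = 0.606), within batch 2 (0.11, limma adjusted p = 0.956), with only the 2 groups in the fit and with the 2 displaced arrays left out or counted to batch 2. Over the alternatives other than leaving out a heart, the difference ran from 0.10 to 0.52 at Cs-IR 160 cGy and from 0.11 to 0.81 at Ti-IR 6.5 cGy. The cause of these changes was not tested. For the alternatives in this section the share of all genes called is not given, so no count is read as particular to the genes named.

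As deposited, with no further normalization, Slc41a3 differed from sham by -1.02 at Cs-IR 160 cGy, 0.32 at Si-IR 32 cGy, 0.23 at Ti-IR 3 cGy and -0.33 at Ti-IR 6.5 cGy. With no batch term it differed by 0.38, 0.34, -0.25 and 0.34 at Si-IR 4, 8, 16 and 32 cGy. With 1 heart left out, the difference at Cs-IR 120 cGy ran from -0.97 to -0.83, at Si-IR 4 cGy from 0.59 to 0.74 and at Ti-IR 6.5 cGy from -0.80 to -0.65. The number of doses at which Slc41a3 passed, 5 in the report, was 1 as deposited, 2 with medians aligned, 3 with no batch term, 4 with only the 2 groups compared, 1 of 8 within batch 1, 0 of 11 within batch 2, and 8 with trended and robust moderation or the dim filter. It passed at no Si-IR dose with no batch term, as deposited, with medians aligned, with replicate number as a block or within batch 2.

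Of the 25 genes named as most like a member, 10 were shared with Spearman's rho and 15 without batch removal, and of the 10 named for Slc41a3, 8 and 6. The 9 calls of the magnesium list became 3 without the 2 displaced arrays and 3 with them counted to batch 2, alternatives chosen after seeing the data.

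Replicate numbers are shared across groups, but in 0 of 12 comparisons did every same-numbered pair correlate over 0.1 (r from -0.22 to 0.24), so they were not taken as pairs. With a replicate block the 5 other members had 2 calls against sham and 1 between sham groups (Trpm6, at background), and Slc41a3 passed at 3 of 12 doses.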
